A study of Mus musculus with 19 samples.

Results

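The genes that make sterols and fatty acids were followed through 19 RNA-sequencing libraries of mouse embryonic stem cells that were differentiated, treated with AICAR or expanded again as lines. The set is a list of 32 gene symbols, of which 31 matched an entry among 22479 gene names. The symbol left over, Msmo1, is the current name of Sc4mol, which has its own entry. The genes were ordered by role into 7 of the mevalonate route, 10 of the steps from squalene to cholesterol, 4 of sterol sensing and transport, 5 of fatty acid synthesis and 5 of desaturation and elongation.

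All cells descend from Rex1 GFPd2 embryonic stem cells, whose green fluorescent protein (GFP) reports Rex1 (Zfp42), a gene of the naive state. The tested groups were 8 colony lines (picked GFP-positive colonies, numbered 1, 3, 4, 5, 6, 7, 9 and 10), 2 sorted lines (expanded from sorted GFP-positive cells) and 3 libraries of GFP-positive cells after AICAR. AICAR is a nucleoside that cells turn into an AMP mimic, an activator of the energy-sensing kinase AMPK. Single libraries were made of AICAR GFP-negative cells, the whole AICAR culture, undifferentiated cells, day-2 cells, day-2 cells sorted as negative for GFP and for the surface antigen SSEA1, and untreated cells of day 15. The lines and the undifferentiated cells were labelled as kept in LIF with inhibitors of MEK and GSK3 (Lif+2i). Differentiation took place in alpha-MEM with fetal bovine serum, and the day-15 groups all descend from the sorted day-2 cells, with or without AICAR until day 15. The medium, AICAR and passaging differ together between the lines and the AICAR GFP-positive cells, so their parts cannot be told apart. For 1 day-2 library and for the GFP fractions of the AICAR culture, the title and the sorting entry differ; groups here go by title. The labels do not say whether replicates were grown separately, and the p-values cover no more than the spread among these libraries, which may be technical. The lines all descend from a single parental ES cell line.

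Cells build cholesterol from acetyl-CoA through mevalonate, farnesyl diphosphate, squalene and lanosterol. Fatty acids are built from acetyl-CoA that ATP-citrate lyase releases from citrate, and are then elongated and desaturated. Genes of both routes are activated by SREBP transcription factors, which INSIG proteins hold in the endoplasmic reticulum when sterols are plentiful. AMPK is known to phosphorylate and inhibit acetyl-CoA carboxylase, a step that transcript levels do not show.

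Reads in genes numbered 5771671 to 8262357 in the 17 libraries of a first sequencing project. The file headers name a second project for AICAR GFP-positive replicate 1, with 12751260 reads, and replicate 2, with 14233421 reads. AICAR GFP-positive replicate 3, the library whose title has no number, stood apart from the other two of its group, with chi-square per degree of freedom of 51.3 and 47.9 against them, where replicates 1 and 2 differed by 10.5 and colony lines by 1.97 to 15.0. In CPM, counts scaled to an equal total of reads in genes, it had 680 CPM of Cubn, a visceral endoderm receptor, against 106 and 98.2 CPM in replicates 1 and 2. Zfp42 was at 358 to 610 CPM in colony lines, 481 and 476 CPM in sorted lines, 677, 620 and 463 CPM in AICAR GFP-positive replicates 1, 2 and 3, and 60.8 CPM in AICAR GFP-negative cells. It was at 248 CPM in the whole AICAR culture, 435 CPM in undifferentiated cells, 28.1 CPM at day 2, 21.6 CPM in the sorted day-2 cells and 5.45 CPM in untreated cells of day 15. The summed level of 9 mesenchyme markers was 2.82 to 124 CPM in colony lines, 14.7 to 224 CPM in AICAR GFP-positive cells, 841 CPM in GFP-negative cells, 8610 CPM in the whole AICAR culture and 37400 CPM in untreated cells of day 15. The summed level of 12 visceral endoderm and yolk sac markers was 7.06 to 13.4 CPM in colony lines, with Afp, Ttr and Apoa4 at 0, and 123 to 894 CPM in AICAR GFP-positive cells, where all 12 had reads. It was 591 CPM in AICAR GFP-negative cells, 1040 CPM in the whole AICAR culture and 301 CPM in untreated cells of day 15. Cubn and Amn made up most of it in replicate 3, at 680 and 62.2 CPM, and in the whole culture, at 763 and 78.2 CPM. Other markers ran the other way: Afp was at 31.6 CPM at day 15 and 0.14 to 3.39 CPM in AICAR GFP-positive cells, and Apob at 53.3 CPM and 2.25 to 30.4 CPM. Against day 15, edgeR called 0 of the 12 higher and 2 lower, where 23.1% and 23.2% of all tested genes were. Of 7 adipocyte markers, Pparg and Adipoq were at 0 in the lines, and the summed level stayed between 12.5 and 31.2 CPM outside untreated cells of day 15, which had 95.2 CPM. The part that these other cell types and the sequencing project play in the results was not tested. In bulk samples, fewer cells of a type and less RNA per cell cannot be told apart.

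Promoter windows from 250 bases before to 50 after the start of the gene, from RefSeq on build GRCm38.p6, were given for 24 of the 31 genes, in 30 windows. No window was given for Fdps, Fdft1, Sqle, Stard4, Scd1, Scd2 and Fads1. Motifs were searched on both strands. The SRE form TCACNCCAC, a sequence bound by SREBP, was found in 1 of the 30 windows, that of Hmgcs1, and in 1.242% of 32851 mouse windows of the same length. CCAAT, the box bound by NF-Y, stood in 21 of the 30 windows (70.0%), of 20 genes, against 37.4% of all windows, and the Sp1 box GGGCGG stood in 21 windows (70.0%), against 35.7% of all. The E-box CACGTG stood in 4 windows (13.3%), against 7.2% of all. These matches describe letters and not bound sites. Other forms of the SRE, and sites outside the windows, were not searched. The 4 windows below are those of Hmgcs1, which holds the SRE form 137 bases before the start, of Ebp, the gene that was most above the AICAR GFP-positive cells in both kinds of line, of Fads2, the gene most below them in colony lines, and of Insig1, the gene with the widest range over the groups. Capitals mark the SRE form, the CCAAT box (CCAAT, or ATTGG on the other strand) and the E-box. Each reads 5′ to 3′ on the strand of the gene. Hmgcs1 is at chr13:119690101-119690400 on the plus strand, Ebp at chrX:8193463-8193762 on the minus strand, Insig1 at chr5:28071162-28071461 on the plus strand and Fads2 at chr19:10101454-10101753 on the minus strand.
Hmgcs1: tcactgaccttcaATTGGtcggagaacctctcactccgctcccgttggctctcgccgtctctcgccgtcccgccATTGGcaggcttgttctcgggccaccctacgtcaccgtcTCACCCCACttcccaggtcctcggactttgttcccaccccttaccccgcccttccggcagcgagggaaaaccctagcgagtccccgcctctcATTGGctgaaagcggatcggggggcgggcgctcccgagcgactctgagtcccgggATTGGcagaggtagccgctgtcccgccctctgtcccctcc
Ebp: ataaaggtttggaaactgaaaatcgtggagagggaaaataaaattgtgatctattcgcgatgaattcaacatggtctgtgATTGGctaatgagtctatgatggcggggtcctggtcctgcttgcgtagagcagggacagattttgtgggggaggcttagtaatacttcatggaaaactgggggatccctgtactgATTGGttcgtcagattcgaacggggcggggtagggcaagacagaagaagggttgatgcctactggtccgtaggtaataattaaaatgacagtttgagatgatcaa
Insig1: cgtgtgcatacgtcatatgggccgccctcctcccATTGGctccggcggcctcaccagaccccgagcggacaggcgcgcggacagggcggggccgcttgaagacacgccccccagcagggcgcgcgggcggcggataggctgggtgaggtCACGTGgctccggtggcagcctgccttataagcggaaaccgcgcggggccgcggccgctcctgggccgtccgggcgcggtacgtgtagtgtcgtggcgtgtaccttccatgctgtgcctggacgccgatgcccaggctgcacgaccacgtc
Fads2: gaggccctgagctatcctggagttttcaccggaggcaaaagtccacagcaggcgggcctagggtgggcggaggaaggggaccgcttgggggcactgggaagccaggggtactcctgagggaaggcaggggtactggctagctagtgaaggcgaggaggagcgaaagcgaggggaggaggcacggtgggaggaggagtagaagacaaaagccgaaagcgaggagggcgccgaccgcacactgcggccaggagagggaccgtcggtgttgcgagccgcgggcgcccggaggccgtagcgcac
The Ebp window holds 2 CCAAT boxes and the Hmgcs1 window 4. The Insig1 window holds 1 CCAAT box and 1 E-box. None of the 3 motifs marked in capitals is in the Fads2 window.

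Hmgcs1, the enzyme that makes the precursor of mevalonate, was listed at 0 reads in all 19 libraries, in a pair of entries with the same transcript accession. Acat2 and Mvk, which act earlier and later in the route, had reads in every library. Hmgcs1 is therefore given as listed at 0, with no fold or test. The other 30 genes had reads in every group and passed the filter on low counts in each of the 8 tested comparisons. Per length, the levels differed widely between genes. The median over the 19 libraries was 318 RPKM (reads scaled for gene length and library total) for the stearoyl-CoA desaturase Scd2, 186 RPKM for Acly, 125 RPKM for Fdps and 104 RPKM for Fasn, and it was 4.29 RPKM for Hsd17b7 and 1.84 RPKM for Acacb. Genes of the mevalonate route, of fatty acid synthesis and of desaturation were thus all among the 4 highest. Lss, Scd2 and Me1 are joined in the files with an overlapping gene each, and their values can hold reads of both.

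Across the 9 groups the genes reached their highest and lowest levels in different groups. The ratio of the highest to the lowest group mean was under 2-fold for 10 genes, from 2-fold to under 3-fold for 11 and at least 3-fold for 9, with a median of 2.47. It was lowest for the squalene synthase Fdft1, at 1.4, and highest for Insig1, at 11. The highest group was untreated day 15 for 7 genes, AICAR GFP-negative cells for 7, day 2 for 6 and the sorted day-2 cells for 5. The lowest group was the whole AICAR culture for 11 genes. For these genes it lay below the means of both GFP fractions, so its values do not read as a mix of those libraries. The reason was not tested. AICAR GFP-positive replicate 3 was above replicates 1 and 2 for 22 of the 30 genes and below both for 3. Among 9442 genes with at least 5 CPM in all 3 libraries, it was above both for 40.3% and below both for 38.9%.

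**Figure D1:**
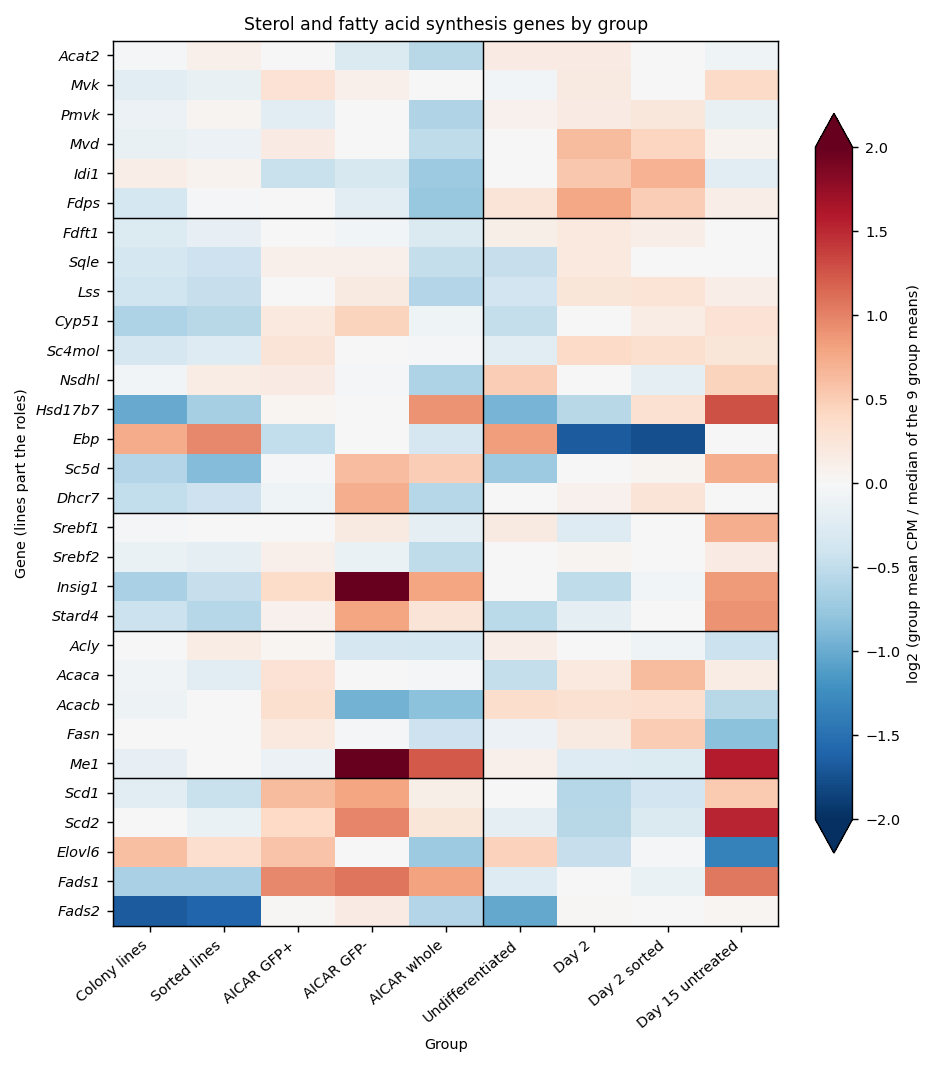
Mean CPM of 30 genes (rows, with lines between the roles) in the 9 groups (columns), as log2 of the group mean over the median of the 9 group means; red is above and blue below, and the colour scale ends at 2 and at -2. Insig1 and Me1 are darkest red in AICAR GFP-negative cells, Ebp is darkest blue in both day-2 libraries, and Fads2 is blue in colony and sorted lines.

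Colony lines against AICAR GFP-positive cells ask how these genes differ once GFP-positive cells are kept as lines. By edgeR's quasi-likelihood test with Benjamini-Hochberg adjusted p under 0.05, 2 of the 30 genes were higher and 10 lower in colony lines, against 27.6% and 30.4% of 12160 tested genes. The share higher was below that of all genes, and the share lower was near it. The higher genes were Ebp and Idi1, and the lower ones were Fads2, Fads1, Hsd17b7, Insig1, Scd1, Cyp51, Sc4mol, Sc5d, Mvk and Sqle. The median log2 fold change was -0.23 over the 30 genes and -0.03 over all genes. Without AICAR GFP-positive replicate 3 the counts were 4 higher and 6 lower: Insig1, Mvk, Sc4mol, Sc5d and Sqle were no longer lower, and Me1 and Pmvk were higher and Acacb lower. Without replicate 2 of the AICAR GFP-positive cells 14 genes were lower. Mvk and Sc4mol also missed the threshold without AICAR GFP-positive replicate 1, and at least 1 of them did without colony line 1, 4, 5, 6 or 7. Within the first sequencing project, where replicate 3 is the only AICAR GFP-positive library, 2 were higher and 13 lower, and Idi1 and Mvk missed the threshold. The first-project fit assumes that replicate 3 varies like the colony lines. In that fit the log2 fold change of Me1 was -0.60, opposite in sign to the 0.70 found without replicate 3. TMM scaling set colony lines 0.15 log2 above library size alone, under which 19 genes were lower and 2 higher. The shares of all genes called in these other fits, here and below, were not counted. Shifts in the counts are therefore not results about the set.

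Sorted lines against AICAR GFP-positive cells ask the same of cells that were sorted and not picked. Of the 30 genes, 2 were higher, Ebp and Acly, and 4 lower, Fads1, Fads2, Scd1 and Cyp51, against 17.5% and 19.1% of 12532 tested genes, larger shares in both directions. The median was -0.15 over the 30 genes and -0.05 over all genes. Both comparisons share the AICAR GFP-positive libraries, so their lists of genes are not independent. Without replicate 3 of the AICAR GFP-positive cells 5 genes were higher and 6 lower. Without sorted line 1 or 2 only Ebp stayed higher and only Fads2 lower, in fits that assume that the lone sorted line varies like the AICAR GFP-positive cells. Within the first sequencing project replicate 3 is the only AICAR GFP-positive library, and the fit assumes that it varies like the sorted lines. There the log2 fold change was 1.58 for Ebp, 0.252 for Acly, -1.68 for Fads1, -1.62 for Fads2, -1.25 for Scd1 and -0.798 for Cyp51.

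Between the lines, and between colony lines and undifferentiated cells, no gene of the set passed. Colony lines against sorted lines gave 0 of 30 by edgeR, where 0% of 11804 genes passed in either direction, and DESeq2 called 0. Of the 30 genes, 1 had an unadjusted p under 0.05, as had 1091 of the 11804. Colony lines against undifferentiated cells gave 0 of 30 by edgeR, against 0.00817% of 12239 genes higher and 0.0245% lower, and 0 by DESeq2. At an unadjusted p under 0.05 there were 8 of the 30 and 2361 of the 12239. With 1 undifferentiated library, this does not show that the levels were alike.

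AICAR GFP-positive cells against untreated cells of day 15 compare the GFP-positive fraction with the differentiated culture of the same age. Here 3 of the 30 genes were higher, Elovl6, Fasn and Acly, and 3 lower, Hsd17b7, Scd2 and Srebf1, against 23.1% and 23.2% of 14800 tested genes, so the set held smaller shares than all genes. The median was -0.01 over the 30 genes and -0.03 over all genes. Without AICAR GFP-positive replicate 3 there were 4 higher and 8 lower. Without replicate 1 only Elovl6 and Fasn passed, and without replicate 2 only Elovl6. Untreated day 15 is 1 library, which the test assumes to vary like the AICAR GFP-positive cells.

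AICAR GFP-positive cells against AICAR GFP-negative cells compare the fractions of the treated culture. None of the 30 genes passed with edgeR, where 0% of 13765 genes did in either direction and 3020 had an unadjusted p under 0.05. At an unadjusted p under 0.05 there were 4 of the 30, and DESeq2 called 2 lower, Me1 and Dhcr7. The share of all genes called was not counted for DESeq2 or for the fit without replicate 3, so these calls do not describe the set. Without AICAR GFP-positive replicate 3, edgeR called 2 higher, Acacb and Elovl6, and 6 lower, Insig1, Me1, Dhcr7, Stard4, Sc5d and Scd2.

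AICAR GFP-positive cells against the sorted day-2 cells, from which they descend, gave 0 of 30 with edgeR, against 3.15% higher and 2.54% lower of 13786 genes. At an unadjusted p under 0.05 there were 5 of the 30 and 3873 of the 13786. DESeq2 called Fads1 and Scd1 higher and Fdps and Idi1 lower. Without replicate 3, edgeR called 4 higher, Ebp, Elovl6, Fads1 and Scd1, and 5 lower, Idi1, Fdps, Dhcr7, Me1 and Fasn. Against undifferentiated cells, 0 of 30 were higher and Ebp alone was lower with edgeR, against 2.42% and 2.62% of 13579 genes, and DESeq2 called Fads1 and Fads2 higher besides. Without replicate 3, Acaca, Fads1 and Fads2 were higher and Ebp, Me1, Idi1, Nsdhl and Fdps lower. Without replicate 1 or 2 the count was 0 in both directions. TMM scaling set the AICAR GFP-positive cells 0.178 log2 below library size alone in this comparison.

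**Figure D2:**
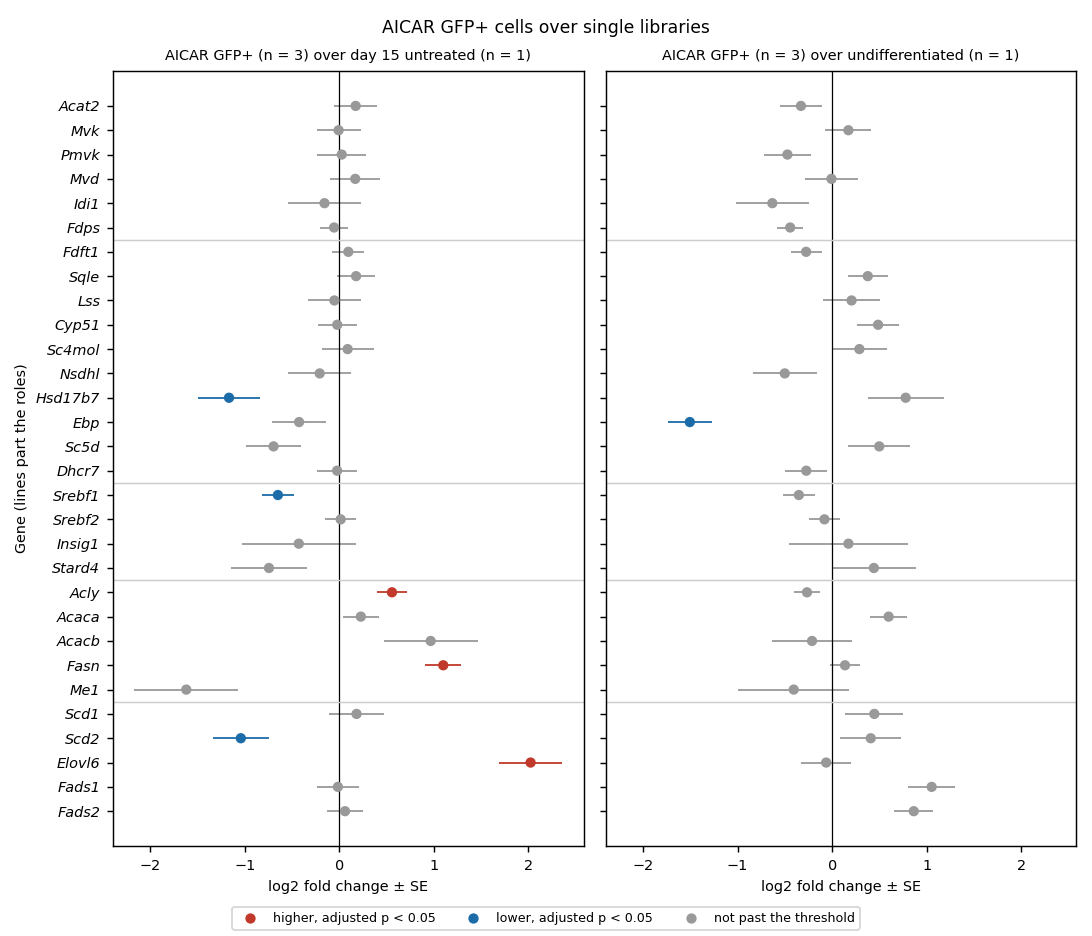
Log2 fold change (x axis, bars are ± SE) of 30 genes (rows, by role) in AICAR GFP-positive cells (n = 3) over the single library of untreated day 15 (left) and of undifferentiated cells (right). Red and blue points passed an adjusted p under 0.05; Elovl6, Fasn and Acly lie to the right and Hsd17b7, Scd2 and Srebf1 to the left against day 15, and Ebp alone passed against undifferentiated cells.

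In the mevalonate route the isomerase Idi1, which interconverts the isoprenoid building blocks, was higher in colony lines than in AICAR GFP-positive cells. Colony lines had a lowest, median and highest value of 70.4, 77.1 and 83.7 CPM and sorted lines 72.5 and 75.1 CPM, against 40.6, 39.4 and 74.8 CPM in AICAR GFP-positive replicates 1, 2 and 3. Replicates 1 and 2 lay below every line and replicate 3 among them, so the groups overlapped. Idi1 was higher in colony lines by 0.74 log2 (SE 0.151, edgeR adjusted p = 0.000818). The change was 1.08 without replicate 3, and it was 0.26 and missed the threshold within the first sequencing project. In sorted lines the difference was 0.69 (SE 0.279, edgeR adjusted p = 0.0951). Idi1 stood at 56.5 CPM in AICAR GFP-negative cells, 42.7 CPM in the whole AICAR culture, 70.3 CPM in undifferentiated cells, 102 CPM at day 2, 114 CPM in the sorted day-2 cells and 60.4 CPM in untreated cells of day 15. The sorted day-2 cells were thus the highest group.

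The farnesyl diphosphate synthase Fdps and the decarboxylase Mvd were highest at day 2. Fdps was at 259 CPM at day 2 and 215 CPM in the sorted day-2 cells, against 183 CPM in undifferentiated cells. It averaged 119 ± 23.6 CPM in colony lines (SD, n = 8), 149 ± 4.09 CPM in sorted lines (SD, n = 2) and 152 ± 8.52 CPM in AICAR GFP-positive cells (SD, n = 3). Neither kind of line differed from the AICAR GFP-positive cells past the threshold for Fdps. Mvd was at 92.7 CPM at day 2, against 59.2 CPM in undifferentiated cells, and at 41.7 CPM in the whole AICAR culture. Mvk, the kinase of mevalonate, was at 16.1 to 25.6 CPM in colony lines, against 24.9 to 31.9 CPM in AICAR GFP-positive cells, overlapping, with a change of -0.34 log2 (SE 0.131, edgeR adjusted p = 0.0374). Pmvk, the next kinase, and Acat2, the thiolase that joins the first acetyl-CoA units, passed in none of the 8 tests as designed and ranged over 1.78- and 1.65-fold between group means. Pmvk was higher in colony lines by 0.30 log2 without AICAR GFP-positive replicate 3 and by 0.34 log2 without replicate 1, and in both cases it passed. The summed level of the 6 genes with reads was 616 CPM at day 2, 557 CPM in the sorted day-2 cells and 279 CPM in the whole AICAR culture, with colony lines at 335 to 463 CPM and AICAR GFP-positive cells at 351 to 478 CPM.

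Among the steps from squalene to cholesterol, Ebp, the sterol isomerase that moves the ring double bond, set the lines and the undifferentiated cells, at 31.8 CPM or more, apart from all other groups, at 22.6 CPM or less. Its lowest, median and highest values were 31.8, 37.3 and 43.5 CPM in colony lines, with sorted lines at 43.7 and 43.2 CPM, against 13.1, 17.6 and 16.8 CPM in AICAR GFP-positive replicates 1, 2 and 3. All 10 lines lay above all 3 AICAR GFP-positive libraries. Ebp was higher by 1.39 log2 in colony lines (SE 0.122, edgeR adjusted p = 6.78e-07) and by 1.62 in sorted lines (SE 0.163, adjusted p = 0.00205). Ebp was at 22.4 CPM in AICAR GFP-negative cells, 17.7 CPM in the whole AICAR culture, 39.8 CPM in undifferentiated cells, 7.05 CPM at day 2, 6.60 CPM in the sorted day-2 cells and 22.6 CPM in untreated cells of day 15. The 95% Poisson intervals, which cover counting error only, were 5.30 to 9.20 CPM at day 2 and 35.2 to 44.8 CPM in undifferentiated cells. The undifferentiated value lay within the range of the colony lines and all 3 AICAR GFP-positive libraries lay below it, by 1.51 log2 (SE 0.234, edgeR adjusted p = 0.0452), and the call was lost without replicate 1 or 2. Within the first sequencing project the change in colony lines was 1.37.

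Hsd17b7, a ketoreductase of sterol demethylation, ran the other way. Its lowest, median and highest values were 2.11, 3.68 and 4.44 CPM in colony lines, with sorted lines at 4.48 and 4.67 CPM, against 6.2, 7.17 and 8.96 CPM in AICAR GFP-positive replicates 1, 2 and 3. The lines lay below all AICAR GFP-positive libraries, with a log2 fold change of -0.88 in colony lines (SE 0.193, edgeR adjusted p = 0.0015) and -0.53 in sorted lines (SE 0.268, adjusted p = 0.164). Untreated cells of day 15 had 17.6 CPM, the highest value, and the AICAR GFP-positive cells differed from them by -1.17 log2 (SE 0.324, edgeR adjusted p = 0.0383), a call lost without replicate 1 or 2. The whole AICAR culture had 13.5 CPM, AICAR GFP-negative cells 7.28 CPM, undifferentiated cells 3.82 CPM, day-2 cells 4.96 CPM and the sorted day-2 cells 8.99 CPM. These are low counts, with 15 reads in colony line 6 and 136 at day 15.

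Cyp51, the lanosterol demethylase, was lower in both kinds of line. In colony lines the lowest, median and highest values were 57.9, 65.9 and 72.0 CPM, and sorted lines had 67.0 and 70.5 CPM, against 107, 102 and 139 CPM in AICAR GFP-positive replicates 1, 2 and 3. The groups did not overlap, with -0.66 log2 in colony lines (SE 0.0970, edgeR adjusted p = 5.65e-05) and -0.58 in sorted lines (SE 0.150, adjusted p = 0.0257), where the call was lost without sorted line 1 or 2. Undifferentiated cells, at 73.0 CPM, were near the lines, and AICAR GFP-negative cells and untreated cells of day 15 were at 137 and 124 CPM. The other lower genes of this role changed less in colony lines: Sc4mol, a methyl oxidase, by -0.43, the desaturase Sc5d by -0.39 and the epoxidase Sqle by -0.31 log2. Without AICAR GFP-positive replicate 3 these were -0.25, -0.19 and -0.18, and none passed. Fdft1, Lss, Nsdhl and Dhcr7, which make squalene, close it into lanosterol, take part in removing methyl groups from the ring and reduce the last ring double bond, passed in none of the 8 tests. Dhcr7 was highest in AICAR GFP-negative cells, at 84.2 CPM, against 40.7 to 55.8 CPM in AICAR GFP-positive cells. The summed level of the 10 genes was 507 to 594 CPM in colony lines and 562 and 574 CPM in sorted lines, against 625 to 866 CPM in AICAR GFP-positive cells and 612 CPM in undifferentiated cells.

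**Figure D3:**
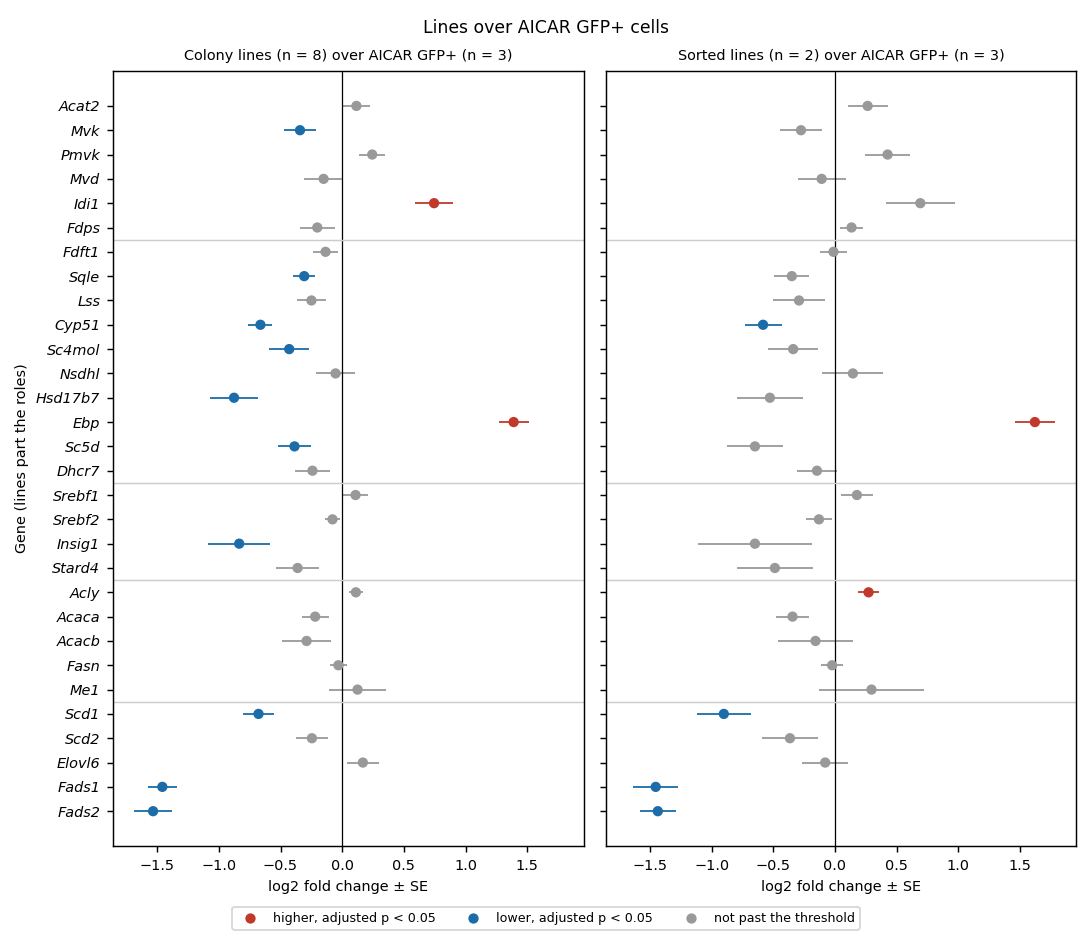
Log2 fold change (x axis, bars are ± SE) of 30 genes (rows, by role) in colony lines (n = 8, left) and sorted lines (n = 2, right) over AICAR GFP-positive cells (n = 3). Red and blue points passed an adjusted p under 0.05; Ebp is farthest right and Fads1 and Fads2 farthest left in both panels.

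Of the genes of sterol sensing, Insig1, which retains the SREBP escort in the endoplasmic reticulum, varied most of all. AICAR GFP-negative cells had 363 CPM (95% counting interval 347 to 379), against 93.2 CPM in untreated cells of day 15 (interval 86.5 to 100), a log2 ratio of 1.95 between single libraries, for which there is no replicate check. AICAR GFP-positive replicates 1, 2 and 3 had 44.6, 40.4 and 114 CPM. All 3 were below the GFP-negative library, and replicate 3 was above replicates 1 and 2 by more than those differed. Against GFP-negative cells the log2 fold change was -2.48 (SE 0.571, edgeR adjusted p = 0.146), and without replicate 3 it was -3.10 and passed. Colony lines had a lowest, median and highest value of 26.0, 31.95 and 45.4 CPM and sorted lines 38.9 and 35.8 CPM. Colony lines overlapped AICAR GFP-positive replicates 1 and 2 and differed from the 3 libraries by -0.83 log2 (SE 0.250, edgeR adjusted p = 0.0109). Without replicate 3 that was -0.23, and the call was lost. The whole AICAR culture had 89.1 CPM, undifferentiated cells 51.5 CPM, day-2 cells 36.2 CPM and the sorted day-2 cells 49.8 CPM. The whole culture therefore lay below its GFP-negative fraction and below AICAR GFP-positive replicate 3, and above replicates 1 and 2.

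Srebf1, which encodes an SREBP that favours fatty acid genes, was highest in untreated cells of day 15, at 179 CPM. AICAR GFP-positive replicates 1, 2 and 3 had 110, 94.4 and 119 CPM, all below it, by -0.65 log2 (SE 0.166, edgeR adjusted p = 0.0307). The call was lost without replicate 1 or 2. Colony lines had a lowest, median and highest value of 82.9, 109 and 117 CPM, sorted lines 101 and 117 CPM, AICAR GFP-negative cells 122 CPM, the whole AICAR culture 94.6 CPM, undifferentiated cells 122 CPM, day-2 cells 90.1 CPM and the sorted day-2 cells 107 CPM. Srebf2, which encodes the SREBP that favours sterol genes, passed in none of the 8 tests and ranged over 1.59-fold between group means. It averaged 240 ± 10.4 CPM in colony lines (SD, n = 8) and 281 ± 28.2 CPM in AICAR GFP-positive cells (SD, n = 3). Stard4, a carrier of cholesterol in the cytosol, was at 9.90 to 13.7 CPM in colony lines, against 13.8, 13.3 and 24.7 CPM in AICAR GFP-positive replicates 1, 2 and 3 and 30.3 CPM at day 15, and it passed in none of the 8 tests.

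In fatty acid synthesis, Fasn and Acly were higher in AICAR GFP-positive cells than in untreated cells of day 15. Fasn, the fatty acid synthase, had 976, 918 and 866 CPM in AICAR GFP-positive replicates 1, 2 and 3, against 455 CPM at day 15 (95% counting interval 440 to 470). All 3 libraries were higher, by 1.10 log2 (SE 0.189, edgeR adjusted p = 0.0113), a call lost without replicate 2. Colony lines had a lowest, median and highest value of 746, 800 and 916 CPM and sorted lines 808 and 807 CPM. AICAR GFP-negative cells had 797 CPM, the whole AICAR culture 609 CPM, undifferentiated cells 740 CPM, day-2 cells 912 CPM and the sorted day-2 cells 1147 CPM, so the sorted day-2 cells and the untreated day-15 cells grown from them were the highest and the lowest group.

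Acly, which splits citrate into the acetyl-CoA used here, followed with 619, 653 and 684 CPM in AICAR GFP-positive replicates 1, 2 and 3, against 470 CPM at day 15. The difference was 0.56 log2 (SE 0.160, edgeR adjusted p = 0.0422), a call lost without replicate 1 or 2 and with library size alone. Sorted lines, at 698 and 707 CPM, were above all 3 AICAR GFP-positive libraries by 0.27 log2 (SE 0.0818, edgeR adjusted p = 0.0414). That call was lost without AICAR GFP-positive replicate 1 or 2 and without either sorted line, and also with library size alone or with no filter. Colony lines had a lowest, median and highest value of 592, 636 and 663 CPM, within the AICAR GFP-positive range but for the lowest line. Undifferentiated cells had 693 CPM, day-2 cells 632 CPM, the sorted day-2 cells 593 CPM, AICAR GFP-negative cells 503 CPM and the whole AICAR culture 498 CPM.

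Me1, the cytosolic malic enzyme that yields NADPH, was highest in AICAR GFP-negative cells, at 291 CPM, and was at 165 CPM in untreated cells of day 15 and 130 CPM in the whole AICAR culture. AICAR GFP-positive replicates 1, 2 and 3 had 32.9, 34.1 and 87.4 CPM, all below these. The log2 fold change was -2.52 against GFP-negative cells (SE 0.552, edgeR adjusted p = 0.142) and -1.62 against day 15 (SE 0.551, adjusted p = 0.0644). Without replicate 3 these were -3.12 and -2.22, and both passed. Colony lines had 40.4 to 60.5 CPM. The carboxylases that AMPK phosphorylates, Acaca and Acacb, passed in none of the 8 tests. Acaca was at 224 CPM in the sorted day-2 cells, against 104 CPM in undifferentiated cells, and averaged 138 ± 17.8 CPM in colony lines (SD, n = 8) and 178 ± 22.2 CPM in AICAR GFP-positive cells (SD, n = 3). Acacb was at 10.4 to 17.7 CPM in colony lines, against 21.2, 19.2 and 10.9 CPM in AICAR GFP-positive replicates 1, 2 and 3, and 7.10 CPM in AICAR GFP-negative cells.

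**Figure D4:**
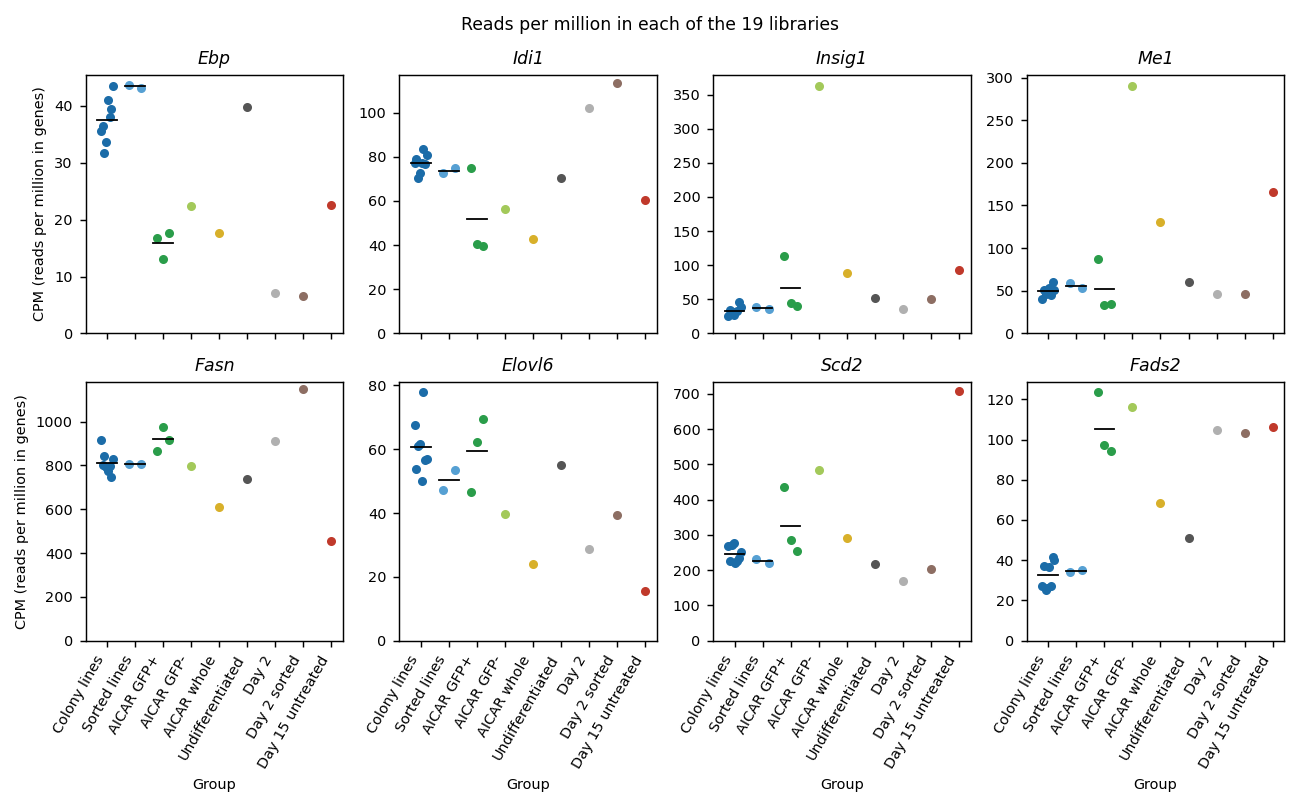
CPM (y axis, from 0) of 8 genes in each of the 19 libraries, by group (x axis); each point is a library and the black line is the mean of groups with more than 1. Fads2 is lower and Ebp higher in every line than in the 3 AICAR GFP-positive libraries, Insig1 and Me1 are highest in AICAR GFP-negative cells, and Scd2 is highest and Elovl6 and Fasn are lowest in untreated cells of day 15.

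Of the desaturases and elongases, Fads1 and Fads2, which insert double bonds into polyunsaturated fatty acids, were the genes most below the AICAR GFP-positive cells in both kinds of line. Fads2 had a lowest, median and highest value of 24.99, 31.9 and 41.7 CPM in colony lines and 34.1 and 34.98 CPM in sorted lines, against 97.4, 94.1 and 124 CPM in AICAR GFP-positive replicates 1, 2 and 3. No line came near the AICAR GFP-positive range, and the change was -1.53 log2 in colony lines (SE 0.153, edgeR adjusted p = 2.04e-06) and -1.44 in sorted lines (SE 0.145, adjusted p = 0.00205). Fads2 was at 116 CPM in AICAR GFP-negative cells, 68.7 CPM in the whole AICAR culture, 50.9 CPM in undifferentiated cells, 105 CPM at day 2, 103 CPM in the sorted day-2 cells and 106 CPM in untreated cells of day 15. Fads2 was thus already near its day-15 level at day 2.

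Fads1 had a lowest, median and highest value of 23.2, 27.8 and 33.7 CPM in colony lines and 25.6 and 29.3 CPM in sorted lines, against 80.3, 71.1 and 102 CPM in AICAR GFP-positive replicates 1, 2 and 3. The groups did not overlap, with -1.46 log2 in colony lines (SE 0.116, edgeR adjusted p = 2.88e-07) and -1.45 in sorted lines (SE 0.181, adjusted p = 0.0032), where the call was lost without sorted line 1 or 2. Within the first sequencing project Fads1 and Fads2 changed by -1.67 and -1.71 in colony lines and by -1.68 and -1.62 in sorted lines. Fads1 was at 90.4 CPM in AICAR GFP-negative cells, 75.7 CPM in the whole AICAR culture, 36.0 CPM in undifferentiated cells, 43.2 CPM at day 2, 39.4 CPM in the sorted day-2 cells and 90.2 CPM in untreated cells of day 15. Unlike Fads2, it was still near the undifferentiated level at day 2. Against undifferentiated cells, AICAR GFP-positive cells had Fads1 at 1.05 log2 (SE 0.250, edgeR adjusted p = 0.0686) and Fads2 at 0.86 (SE 0.207, adjusted p = 0.0697), which missed the threshold and passed without replicate 3.

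Scd1, a stearoyl-CoA desaturase that makes monounsaturated fatty acids, had a lowest, median and highest value of 45.2, 53.0 and 59.2 CPM in colony lines and 45.0 and 44.1 CPM in sorted lines, against 81.3, 76.2 and 123 CPM in AICAR GFP-positive replicates 1, 2 and 3. All lines were below, by -0.68 log2 in colony lines (SE 0.122, edgeR adjusted p = 0.000317) and -0.90 in sorted lines (SE 0.219, adjusted p = 0.0215), where the call was lost without sorted line 1 or 2. Scd1 was at 104 CPM in AICAR GFP-negative cells, 65.8 CPM in the whole AICAR culture, 60.5 CPM in undifferentiated cells, 40.9 CPM at day 2, 46.2 CPM in the sorted day-2 cells and 86.9 CPM in untreated cells of day 15. Scd2, its relative, was at 707 CPM in untreated cells of day 15, above every other library. AICAR GFP-positive replicates 1, 2 and 3 had 286, 256 and 436 CPM of Scd2, a change of -1.04 log2 from day 15 (SE 0.294, edgeR adjusted p = 0.0401), a call lost without replicate 1 or 2. Scd2 was at 484 CPM in AICAR GFP-negative cells, 292 CPM in the whole AICAR culture, 217 CPM in undifferentiated cells, 169 CPM at day 2 and 203 CPM in the sorted day-2 cells. Colony lines, at 220 to 278 CPM, and sorted lines, at 231 and 219 CPM, did not pass against the AICAR GFP-positive cells. Scd1 and Scd2 are related in sequence, and how reads were divided between them was not tested.

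Elovl6, which elongates palmitate, had the largest positive log2 fold change of the 30 genes in AICAR GFP-positive cells over untreated day 15. Replicates 1, 2 and 3 had 62.3, 69.4 and 46.6 CPM, against 15.6 CPM at day 15 (95% counting interval 12.9 to 18.6). All 3 were higher, by 2.02 log2 (SE 0.335, edgeR adjusted p = 0.0103), and the call held without each of the 3 in turn. The lines overlapped the AICAR GFP-positive range, with a lowest, median and highest value of 50.2, 59.0 and 78.0 CPM in colony lines and 47.2 and 53.4 CPM in sorted lines. Elovl6 was at 39.9 CPM in AICAR GFP-negative cells, 24.1 CPM in the whole AICAR culture, 55.1 CPM in undifferentiated cells, 28.9 CPM at day 2 and 39.4 CPM in the sorted day-2 cells. Between these single libraries, untreated day 15 lay above undifferentiated cells for Scd1, Scd2, Fads1 and Fads2 and below them for Elovl6.

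The single libraries give ratios with no replicate check and no test. The ratios are scaled by TMM between the libraries of each pair, so they differ from ratios of the CPM given above, and genes near 2-fold can change side with library size alone. At day 2 against undifferentiated cells, Ebp and Elovl6 were lower by more than 2-fold and no gene of the set was higher, among 29 with at least 50 reads in either library, where 9.02% of 9717 genes were higher and 9.09% lower, a near share for the lower genes. TMM shifted this comparison by -0.0773 log2 from library size alone, under which Fads2 was past 2-fold higher and Elovl6 was no longer past 2-fold lower. In the sorted day-2 cells against undifferentiated cells, Acaca and Hsd17b7 were higher and Ebp lower, where 9.57% and 9.77% of genes were. With library size alone Fads2 was higher too, in a comparison that TMM shifted by -0.102 log2. In the sorted day-2 cells against the other day-2 library, no gene of the set passed, where 0.413% of genes were higher and 0.106% lower. In untreated cells of day 15 against undifferentiated cells, 6 of 30 were higher and 3 lower, where 30% of genes were higher and 23.7% lower, larger shares than in the set. The higher ones were Hsd17b7 (log2 ratio 1.89), Scd2 (1.45), Me1 (1.21), Sc5d (1.19), Stard4 (1.17) and Fads1 (1.07), and the lower ones were Elovl6 (-2.06), Acacb (-1.14) and Ebp (-1.06). TMM shifted this comparison by -0.25 log2 from library size alone, under which Fads2 was higher besides and neither Acacb nor Ebp was past 2-fold lower. Against the sorted day-2 cells, untreated cells of day 15 were higher in 4, Me1, Scd2, Ebp and Fads1, and lower in 4, Fasn, Elovl6, Idi1 and Acacb, where 28.3% and 21.9% of genes were. With library size alone, from which TMM shifted this comparison by -0.186 log2, Idi1 and Acacb were no longer past 2-fold lower. The whole AICAR culture had no gene higher and 2 lower, Scd2 and Nsdhl, than untreated cells of day 15, where 9.93% and 17.2% of genes were. There 27 of the 30 ratios were below 0, with a median of -0.44 over the set and 0.03 over all genes. The share of all genes below 0 was not counted. AICAR GFP-negative cells had Insig1 and Elovl6 higher and Hsd17b7 lower than untreated cells of day 15, where 11.3% and 21.3% of genes were. In this fraction 17 of the 30 ratios were below 0, with a median of -0.07, so the lower median of the whole culture was not shared.

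Other genes of the same pathways were read from lists made for them, which were chosen with earlier results of these data known. In colony lines against AICAR GFP-positive cells, 15 of 23 tested genes of fatty acid oxidation were higher and 4 lower, with a median of 0.52 log2, where 27.6% of all tested genes were higher and 30.4% lower. Acadm, a dehydrogenase of medium-chain acyl-CoA, averaged 195 ± 9.34 CPM in colony lines (SD, n = 8) and 76.3 ± 3.53 CPM in AICAR GFP-positive cells (SD, n = 3), a change of 1.5 log2 (SE 0.0708, edgeR adjusted p = 3.51e-09). Ehhadh, a peroxisomal oxidation enzyme, changed by 2.81 and the long-chain dehydrogenase Acadl by -1.40. In sorted lines 13 of 23 were higher and 2 lower, where 17.5% and 19.1% of all tested genes were. Of 10 tested genes of cholesterol efflux, esterification and the LXR receptors, 2 were higher and 6 lower in colony lines, with the exporter Abcg1 at -4.68, the lipoprotein gene Apoe at 1.24 and Apoc1 at 1.41 log2.

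Of 9 tested other sterol and isoprenoid enzymes, 1 was higher and 5 lower in colony lines. Lbr, a sterol reductase of the nuclear membrane, was among the lower ones, at -0.58 log2 (SE 0.0825, edgeR adjusted p = 4.59e-05). Of 10 genes of SREBP processing and control, 6 were lower and none higher, with Creb3l1 at -2.52 and Scap, the SREBP escort, at -0.64 log2. Of 13 tested genes of sterol uptake and transport, 3 were higher and 7 lower, with Gramd1a at 1.20 and Npc2, a carrier of cholesterol in lysosomes, at 0.80 log2. Of 28 tested other genes of fatty acid synthesis, elongation and activation, 8 were higher and 9 lower, with Oxsm at -1.38, G6pdx at 0.62 and Acsl4 at -0.85. Set beside the 27.6% of all tested genes that were higher and the 30.4% that were lower, the counts of these other fatty acid genes were near the background in both directions. The shares lower were above the background in the efflux, other sterol, SREBP control and uptake lists, and the shares higher were below it. These are descriptions of lists, with no test.

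In sorted lines against AICAR GFP-positive cells the other lists ran as follows: 1 of 10 other sterol enzymes was higher and 3 lower, 6 of 10 SREBP control genes were lower, 2 of 15 uptake genes were higher and 5 lower, 2 of 10 efflux genes were higher and 4 lower, and 6 of 29 other fatty acid genes were higher and 4 lower. All tested genes were 17.5% higher and 19.1% lower, so the other fatty acid genes were near the background for higher genes and below it for lower ones, and the share lower was above it in the other 4 lists. In AICAR GFP-positive cells against untreated cells of day 15, 4 of 25 genes of fatty acid oxidation were higher and 5 lower, 2 of 11 other sterol enzymes were higher and 3 lower, and 5 of 15 uptake genes were lower. In the same comparison 1 of 10 SREBP control genes was higher and 4 lower, 2 of 12 efflux genes were higher and 3 lower, and 2 of 29 other fatty acid genes were higher and 2 lower. Of all tested genes 23.1% were higher and 23.2% lower, and in every one of these lists the share higher was below the background, while the share lower was above it for uptake and SREBP control genes, near it for oxidation, other sterol and efflux genes and below it for other fatty acid genes. Against undifferentiated cells, where 2.42% of all tested genes were higher and 2.62% lower, AICAR GFP-positive cells had 0 higher and 6 lower of 23 oxidation genes, 1 higher and 0 lower of 10 SREBP control genes, and 1 and 1 of 10 efflux genes. They had 1 higher and 2 lower of 30 other fatty acid genes, and edgeR called none of 10 other sterol enzymes or 15 uptake genes, of which 4 and 3 had an unadjusted p under 0.05.

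Among the 8 colony lines the coefficient of variation of the 30 genes was 3.8% to 21.1%, with a median of 11.8%. Fads2, at 24.99 to 41.7 CPM, and Hsd17b7, at 2.11 to 4.44 CPM, spread widely for the set, while Acly lay at 592 to 663 CPM and Srebf2 at 221 to 253 CPM. Fads2 was at 24.99 to 27.1 CPM in lines 1, 4, 5 and 7 and at 36.7 to 41.7 CPM in lines 3, 6, 9 and 10. Fdps was at 94.1 to 108.5 CPM in lines 1, 4, 5 and 7 and at 126 to 166 CPM in the other 4. Mvd, Sc4mol and Me1 were also lower in lines 1, 4, 5 and 7, with no overlap. Acaca ran the other way, at 145 to 163 CPM in lines 1, 4, 5 and 7 and 111 to 131 CPM in the other 4. So did Elovl6, at 61.1 to 78.0 CPM and 50.2 to 56.9 CPM. These genes are named because they part, and the share of all genes that part in this way was not counted. Their lack of overlap is therefore no result about the set. Over all genes, chi-square per degree of freedom was 2.92 to 8.76 among lines 1, 4, 5 and 7, 1.97 to 6.37 among the other 4, and 8.35 to 15.0 between the 4 and the other 4. These ranges overlap. Line 7 was at 7.33 to 8.76 from lines 1, 4 and 5 and at 10.5 to 15.0 from the other 4, while lines 5 and 10 were at 8.35. The labels do not divide the colony lines, so this division comes from the same profiles and the distances are no separate support for it. No test was made.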

How the data were processed

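Libraries of 19 samples were grouped by their titles into 9 groups. The deposited tables hold, per the file headers, read counts per gene and RPKM values computed by the authors with rpkmforgenes on a RefSeq gene table. Those gene models omit 3′ UTRs. Per the submitters' processing notes, tools included bcl2fastq, CASAVA 1.8.2, Trimmomatic 0.3.3, TopHat2 2.0.14 and Bowtie2 2.2.5, with mouse build mm9. Whether counting used strand is not given in the sources used here.

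Counts of rows sharing a name were summed. CPM uses reads in genes. Genes were filtered (minimum count 10, total 15), scaled by TMM and tested across all genes with edgeR 4.0.16 in R 4.3.3 (quasi-likelihood test, Benjamini-Hochberg adjusted p under 0.05); DESeq2 1.42.0 was an alternative. The procedure was also run on simulated counts, with the same spread for every gene and no outlying library. These data differ from that setting, as an AICAR GFP-positive library stands apart from its group. Where a group has 1 library, the test assumes that it varies like the other group. Single libraries were compared as log2 ratios, scaled by TMM between the 2 libraries, with a prior count of 2, for genes with at least 50 reads in 1 of the libraries, and differences of more than 2-fold are given with no test. Intervals are 95% Poisson intervals and cover counting error only.

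The genes and the lists were chosen with earlier results of these data known. Genes are described by role, with per-library values for up to 6 called genes in each direction of a comparison. Alternatives were other scaling, no filter, a joint fit of all libraries, a replicate block, the first sequencing project alone and leaving out each replicate. Some genes of the other pathway lists are not reported here by name.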

Additional observations from a re-analysis of the deposited data

Results flagged for a closer look

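Hsd17b7 in colony line 6 stood apart from the other colony lines, at 2.114 CPM against 3.491 to 4.436 CPM in the other 7. The gap to the nearest line, divided by the whole range, was 0.593 for 8 samples, above Dixon's critical value at 95%. The value rests on 15 reads, with a 95% Poisson interval of 1.18 to 3.49 CPM. Of 30 genes looked at in this way, 1 stood apart, and chance flags about 1 in 20. Without colony line 6 the log2 fold change of Hsd17b7 in colony lines over AICAR GFP-positive cells was -0.79, and the call held.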

How the results depend on the processing

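Across 25 gene calls, 332 alternative values gave 288 with the same call, 44 that missed the threshold and 0 of opposite sign. These values cover only the genes called in the tests as designed. Me1, which is not among them, changed sign in the lines over AICAR GFP-positive cells. In colony lines it was at 0.70 log2 without AICAR GFP-positive replicate 3 and at -0.60 within the first sequencing project. In sorted lines it was at 0.89 and -0.43. The calls that held in every alternative were Elovl6 (AICAR GFP-positive over day 15), Cyp51, Ebp, Fads1, Fads2, Hsd17b7 and Scd1 (colony lines over AICAR GFP-positive cells), and Ebp and Fads2 (sorted lines). The causes of the moved counts below were not tested, and the share of all genes called in each setting was not counted. In a joint fit of all 19 libraries, AICAR GFP-positive cells had 7 genes lower than day 15, 2 higher and 4 lower than GFP-negative cells, 3 higher and 3 lower than the sorted day-2 cells, and 4 higher and 2 lower than undifferentiated cells; colony and sorted lines each had 4 higher. DESeq2 gave 2 lower against GFP-negative cells, 2 higher and 2 lower against the sorted day-2 cells, and 2 higher against undifferentiated cells. With no filter, sorted lines had 1 higher. With library size alone, a setting chosen after seeing the data, colony lines had 19 lower, and sorted lines 1 higher and 7 lower. Within the first sequencing project, sorted lines had 5 higher and 17 lower.

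Leaving out each replicate in turn gave, for AICAR GFP-positive cells, 1 to 4 higher and 0 to 8 lower against day 15, 0 to 2 and 0 to 6 against GFP-negative cells, 0 to 4 and 0 to 5 against the sorted day-2 cells, and 0 to 3 and 0 to 5 against undifferentiated cells. It gave 2 to 4 higher and 6 to 14 lower in colony lines, and 1 to 5 and 1 to 6 in sorted lines. Same-numbered sorted and AICAR GFP-positive libraries had deviations correlated at 0.0233 and 0.0102. These values show no pairing by number but cannot exclude it, as the deviations of 2 sorted lines mirror each other and replicate 3 lies apart. With the replicate block, sorted lines had 7 higher and 6 lower. Replicate 3 shares its number with no sorted line, so that fit is no separate check from leaving replicate 3 out. Ebp was at 1.66 and 1.65 log2 in these fits, and Fads2 at -1.31 in both. Counts from single libraries stayed within 1.5 times with a prior count of 0.5, at least 20 reads or library size alone, but library size alone changed which genes were past 2-fold in 4 comparisons, as given there. Groups of 1 library, the low counts of Hsd17b7 and the distance of AICAR GFP-positive replicate 3 limit these results.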
